A study of Mus musculus with 24 samples.

Results

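Condensin and cohesin are ring-shaped protein complexes that organise chromosomes. In each, a pair of SMC ATPases forms a hinged ring, a kleisin protein closes it, and HEAT-repeat proteins bind the kleisin. Condensin compacts chromosomes for mitosis. Cohesin holds sister chromatids together from DNA replication to anaphase and also forms chromatin loops in cells that are not dividing.

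The 10 genes described here were 5 condensin genes and 5 cohesin genes, out of 18193 genes tested. The condensin genes were Smc2 and Smc4 (the SMC ATPases), Ncaph (the kleisin of condensin I), and Ncapd2 and Ncapg (its HEAT-repeat subunits). The cohesin genes were Smc1a and Smc3 (the SMC ATPases), Rad21 (the kleisin), Stag1 (a HEAT-repeat subunit) and Esco2, an acetyltransferase that modifies SMC3 during S phase and is not a subunit. They were chosen by name, through every probe set annotated to only 1 of these genes. All 10 were measured, by 30 of the 34945 single-gene probe sets on the arrays. A gene was represented by its probe set with the highest mean over all 24 arrays.

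The ADR group held 12 arrays, from primary lymphoma cells of Eμ-Myc transgenic mice given the anthracycline Adriamycin (doxorubicin, here ADR) at 0.05 µg/ml in culture for 5 days. The drug damages DNA and traps topoisomerase II on DNA. The untreated group held 12 arrays, from the same 12 lymphomas without the drug. The labels do not say how long the untreated cells were in culture before their RNA was taken, and the part of any difference in time in culture was not tested. In Eμ-Myc mice an immunoglobulin enhancer drives Myc in B-lineage cells. Both groups had been transduced with a Bcl2 retrovirus, which protects cells from apoptosis, and selected with puromycin. Both were grown over an irradiated feeder layer of NIH 3T3, a mouse fibroblast line whose RNA hybridises to the same probe sets. Each lymphoma gave 1 array per group, and its number paired the arrays. Values are log2 expression, and a change is ADR minus untreated within a lymphoma, so a change of -1 is 2-fold lower.

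Of 9 measured B cell markers, 0 had a group mean near the array floor (at or below 4.47, the highest array median), and their mean level per array was 7.59 to 10.26 in ADR and 8.54 to 9.65 in untreated. The 3 erythroid markers were all near that floor in both groups, as were 3 of 8 T cell markers in ADR and 4 of 8 in untreated. Fibroblast and macrophage markers were higher in ADR, with values beside the results below. In such bulk samples, fewer cells of a type and less RNA per cell cannot be told apart.

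All 5 condensin genes and 4 of the 5 cohesin genes fell with ADR at an adjusted p under 0.05 (limma, paired by lymphoma, Benjamini-Hochberg over all genes), against 12.8% of all genes tested that were called lower. None of the 10 was called higher, against 13.7% of all genes. Condensin genes fell by 1.44 to 2.19 on the log2 scale, and the 3 cohesin subunit genes that fell did so by 0.66 to 0.87. Esco2 had the largest mean change of the 10, at -2.48. All 9 called genes were lower in every one of the 12 pairs, which held for 4.17% of all genes. The 5 condensin genes and Esco2 were at least 2-fold lower, against 1.96% of all genes. The median change was -1.66 for the condensin genes and -0.75 for the cohesin genes, beside -0.01 for all genes tested.

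**Figure D1:**
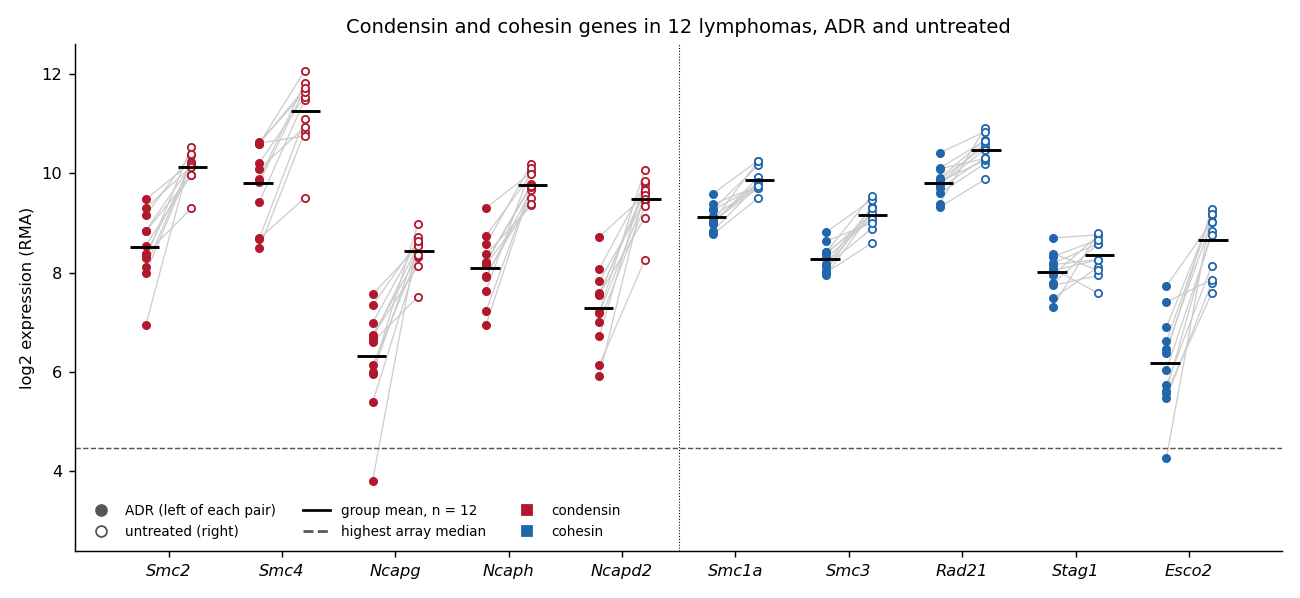
Log2 expression (vertical axis) of the 10 genes, condensin in red and cohesin in blue. Each lymphoma is 1 filled point (ADR, left) joined to 1 open point (untreated, right), black bars are means of 12 arrays, and the dashed line is the highest array median (4.47). The ADR points of Ncaph lie below all its untreated points, while the 2 groups of Stag1 overlap over most of their range.

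The SMC ATPases of condensin come first. Smc2 had a lowest level of 6.95, a median of 8.46 and a highest of 9.47 in ADR, against 9.29, 10.18 and 10.52 in untreated. Only 2 of the 12 ADR arrays were above the lowest untreated array. Its mean was 8.52 ± 0.68 in ADR and 10.13 ± 0.31 in untreated (SD, n = 12 each), a change of -1.61 (SE 0.20, limma adjusted p = 8.83e-05), which is 3.06-fold lower. Smc4, its partner in the ring, had 8.49, 9.98 and 10.62 (lowest, median and highest) in ADR, against 9.50, 11.51 and 12.06 in untreated. Here 8 of 12 ADR arrays were above the lowest untreated array, so the groups overlapped although every pair fell. The mean change of Smc4 was -1.44 (SE 0.18, limma adjusted p = 9.03e-05), or 2.72-fold lower.

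Ncaph, the kleisin that joins the ATPase heads, was the member whose groups stood apart. Its lowest, median and highest levels were 6.94, 8.18 and 9.30 in ADR, and 9.36, 9.74 and 10.19 in untreated. All 12 ADR arrays were below all 12 untreated arrays, a pattern that 0.264% of all genes tested had. The change of Ncaph was -1.66 (SE 0.17, limma adjusted p = 2.50e-05), or 3.17-fold lower. The brightest probe set of Ncaph has the suffix _x_at, which marks probes that may match other transcripts. Its other probe set had a mean of 6.81 ± 0.59 in ADR and 8.61 ± 0.38 in untreated (SD, n = 12 each) and a change of -1.80.

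The HEAT-repeat subunits Ncapd2 and Ncapg had the largest mean changes among the condensin genes. Ncapd2 had 5.93, 7.38 and 8.72 (lowest, median and highest) in ADR, against 8.25, 9.58 and 10.07 in untreated. The change of Ncapd2 was -2.19 (SE 0.20, limma adjusted p = 1.65e-05), or 4.57-fold lower, and 15 of the 18193 genes had a more negative mean change. Ncapg had 3.81, 6.64 and 7.56 in ADR, against 7.52, 8.54 and 8.98 in untreated. For both genes, 1 ADR array was above the lowest untreated array. The change of Ncapg was -2.11 (SE 0.29, limma adjusted p = 0.000173), or 4.33-fold lower. Its lowest ADR value, in lymphoma 2949, was under the highest array median of 4.47, where array values are compressed.

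The cohesin ring genes changed less, with little spread between lymphomas. Smc1a had 8.77, 9.04 and 9.59 (lowest, median and highest) in ADR, against 9.50, 9.77 and 10.25 in untreated, and 1 ADR array was above the lowest untreated array. Its change was -0.75 (SE 0.07, limma adjusted p = 1.65e-05), or 1.68-fold lower. Smc3, the ATPase whose acetylation locks cohesin on replicated DNA, had 7.95, 8.24 and 8.81 in ADR, against 8.59, 9.19 and 9.55 in untreated. In Smc3, 2 ADR arrays were above the lowest untreated array. Its change was -0.87 (SE 0.08, limma adjusted p = 1.96e-05), or 1.83-fold lower.

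Rad21, the kleisin that separase cuts at anaphase, had 9.31, 9.81 and 10.41 (lowest, median and highest) in ADR, against 9.88, 10.51 and 10.91 in untreated. The groups overlapped, with 4 ADR arrays above the lowest untreated array. The change of Rad21 was -0.66 (SE 0.09, limma adjusted p = 0.000158), or 1.58-fold lower. The pairs ranged from -1.52 in lymphoma 2581 to -0.21 in lymphoma 5560.

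Stag1 was the one member that did not pass the test. It had 7.32, 8.06 and 8.70 in ADR, against 7.58, 8.42 and 8.81 in untreated, and 10 of 12 ADR arrays were above the lowest untreated array. Its change was -0.35 (SE 0.14, 95% interval -0.66 to -0.04, limma adjusted p = 0.0893), with 10 of 12 pairs below 0. The pairs spanned -1.49 in lymphoma 403 to 0.50 in lymphoma 2949. Without lymphoma 2949 the change was -0.43 and was called (limma adjusted p = 0.0322).

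Esco2, the S-phase acetyltransferase, had 4.27, 6.21 and 7.73 (lowest, median and highest) in ADR, against 7.58, 8.93 and 9.28 in untreated, with 1 ADR array above the lowest untreated array. Its change was -2.48 (SE 0.28, limma adjusted p = 4.72e-05), or 5.56-fold lower, and 2 of the 18193 genes had a more negative mean change. The pairs of Esco2 ranged from -5.00 in lymphoma 2949 to -0.46 in lymphoma 3802. In lymphoma 2949 the ADR level, 4.27, was under the highest array median of 4.47, where values are compressed, so that difference is not exact. Esco1, the paralogue that acetylates SMC3 outside S phase as well, averaged 8.57 ± 0.32 in ADR and 8.47 ± 0.20 in untreated (SD, n = 12 each), a change of 0.10 that was not called (limma adjusted p = 0.510).

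Promoter windows are shown for genes of both complexes, as a description. RefSeq's table for GRCm38.p6 held a window, from 250 bases before to 50 after a transcript start, for 7 of the 10: Smc2, Ncapg, Ncaph, Ncapd2, Smc1a, Smc3 and Stag1. Smc4, Rad21 and Esco2 are named only. The 4 windows below are those with letters of the E2F type. They are chr5:45669675-45669974 (plus strand, Ncapg), chr6:125191537-125191836 (minus strand, Ncapd2), chrX:152016178-152016477 (plus strand, Smc1a) and chr9:100643198-100643497 (plus strand, Stag1). Capitals mark 3 sets of letters on either strand: TTTGAA (CHR, cell cycle homology region), CCAAT, and TTTGGCGC, TTTCGCGC, TTTCCCGC or TTTGCCGC (E2F). No 2 marked sets overlap.
Ncapg: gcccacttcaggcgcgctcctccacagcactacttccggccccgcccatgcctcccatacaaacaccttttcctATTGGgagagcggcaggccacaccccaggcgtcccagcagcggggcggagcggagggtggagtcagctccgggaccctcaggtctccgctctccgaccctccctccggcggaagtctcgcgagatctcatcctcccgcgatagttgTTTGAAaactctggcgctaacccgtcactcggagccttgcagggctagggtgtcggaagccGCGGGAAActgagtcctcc
Ncapd2: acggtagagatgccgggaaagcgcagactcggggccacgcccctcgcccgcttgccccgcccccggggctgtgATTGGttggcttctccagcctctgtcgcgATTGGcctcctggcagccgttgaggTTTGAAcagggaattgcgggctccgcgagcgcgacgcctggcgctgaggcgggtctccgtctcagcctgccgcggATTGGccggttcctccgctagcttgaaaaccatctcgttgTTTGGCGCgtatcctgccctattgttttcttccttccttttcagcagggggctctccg
Smc1a: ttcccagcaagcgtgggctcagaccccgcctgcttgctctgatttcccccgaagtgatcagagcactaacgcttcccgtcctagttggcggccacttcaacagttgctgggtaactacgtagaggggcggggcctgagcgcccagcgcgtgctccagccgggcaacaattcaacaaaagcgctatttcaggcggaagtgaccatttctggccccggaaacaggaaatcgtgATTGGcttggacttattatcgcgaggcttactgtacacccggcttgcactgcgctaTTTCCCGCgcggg
Stag1: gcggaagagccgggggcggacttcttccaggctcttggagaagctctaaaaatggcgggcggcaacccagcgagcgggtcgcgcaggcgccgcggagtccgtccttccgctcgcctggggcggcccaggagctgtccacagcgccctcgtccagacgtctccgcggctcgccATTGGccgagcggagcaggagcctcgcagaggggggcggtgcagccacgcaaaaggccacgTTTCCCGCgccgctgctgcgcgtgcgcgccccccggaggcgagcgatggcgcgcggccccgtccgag

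The E2F letters were in 4 of the 7 member windows (Ncapg, Ncapd2, Smc1a and Stag1), against 2.26% of the 32851 windows in the table. CHR letters were in 3 of 7, the condensin genes Smc2, Ncapg and Ncapd2, against 17.9% of all windows, and CCAAT was in 5 of 7 (Smc2, Ncapg, Ncapd2, Smc1a and Stag1), against 37.4%. CHR and CCAAT stood together in 3 of 7 windows (Smc2, Ncapg and Ncapd2), against 6.95%. In Ncapd2 the E2F letters ended at the base before the start (bases -8 to -1), and in Ncapg the CHR letters lay at bases -30 to -25. The windows of Ncaph and Smc3, which were called lower, held none of these letters. That of Stag1, which was not called lower, held both E2F and CCAAT letters. Any part of these letters in the changes with ADR was not tested. The start used for Stag1 lies 45739 bases inside the annotated gene, that of Ncapd2 514 bases and that of Ncapg 34 bases. A match of letters is a description of the window and not evidence of binding.

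Across all probe sets of the 10 genes, 24 of 30 were called lower, against 12.5% of the 34945 single-gene probe sets. At 9 of the 10 genes all probe sets or all but 1 were called: 4 of 5 for Smc2, 3 of 3 for Smc4, Smc1a and Rad21, and 2 of 2 for Ncapg, Ncaph, Ncapd2, Smc3 and Esco2. Stag1 had 1 of 6 called, at -0.46 (limma adjusted p = 0.0357), and its other 5 lay between -0.41 and -0.02. The other probe sets of Smc1a changed by -1.05 and -1.02, those of Rad21 by -0.91 and -0.43 and that of Smc3 by -0.52. The size of the gap between condensin and cohesin genes therefore depended on the probe set. The second probe set of Ncapd2 changed by -0.91 and that of Esco2 by -0.97. That of Esco2 averaged 2.91 in ADR and 3.89 in untreated, both under 4.47, and 4 of the 30 probe sets had a group mean at or below that level.

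**Figure D2:**
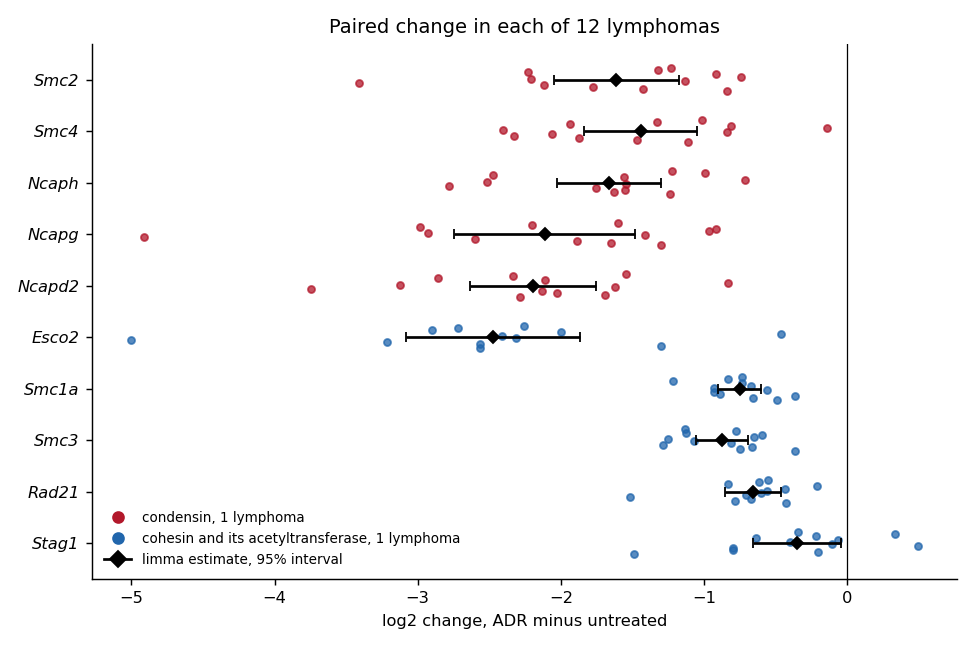
Log2 change, ADR minus untreated (horizontal axis), of each gene in each of 12 lymphomas (points), with the limma estimate and its 95% interval (diamond and bar). Condensin genes (red) and Esco2 spread from near 0 to -5.00, while Smc1a, Smc3 and Rad21 stay between -1.52 and -0.21 and Stag1 lies on both sides of 0.

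The condensin and cohesin subunits of matching role were then set against each other within each lymphoma, as 5 pairs of genes. These pairs were chosen with earlier results of these data known. The ATPase Smc2 changed by -1.61 and the ATPase Smc3 by -0.87. The difference of these changes was -0.74 ± 0.70 (SD, n = 12), below 0 in 12 of 12 lymphomas (exact two-sided sign-flip permutation p = 0.000488, adjusted over the 5 pairs 0.000814). Smc4 minus Smc1a was -0.69 ± 0.62, below 0 in 11 of 12 (exact permutation p = 0.00391, adjusted 0.00391). The exception was lymphoma 3802, at 0.53. With the probe sets of largest variance it was -0.42 (adjusted exact permutation p = 0.0586), and within the 7 DOX lymphomas described below it was -0.55 (adjusted exact permutation p = 0.0781), so the call was lost in both.

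Between the kleisins, Ncaph minus Rad21 was -1.01 ± 0.62 (SD, n = 12), below 0 in 12 of 12 lymphomas (exact permutation p = 0.000488, adjusted 0.000814). The HEAT-repeat genes had the largest mean differences. Ncapd2 minus Stag1 was -1.84 ± 1.02, below 0 in 12 of 12 (exact permutation p = 0.000488, adjusted 0.000814), and Ncapg minus Stag1 was -1.76 ± 1.45, below 0 in 11 of 12 (exact permutation p = 0.000977, adjusted 0.00122). Lymphoma 403 was the exception for the second, at 0.19. The value 0.000488 is the smallest p that the 4096 sign patterns over 12 lymphomas can give. Both HEAT-repeat comparisons share Stag1, which was not called, and so are not independent of each other. A difference between changes of different probe sets also carries any difference in how each probe set compresses change.

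**Figure D3:**
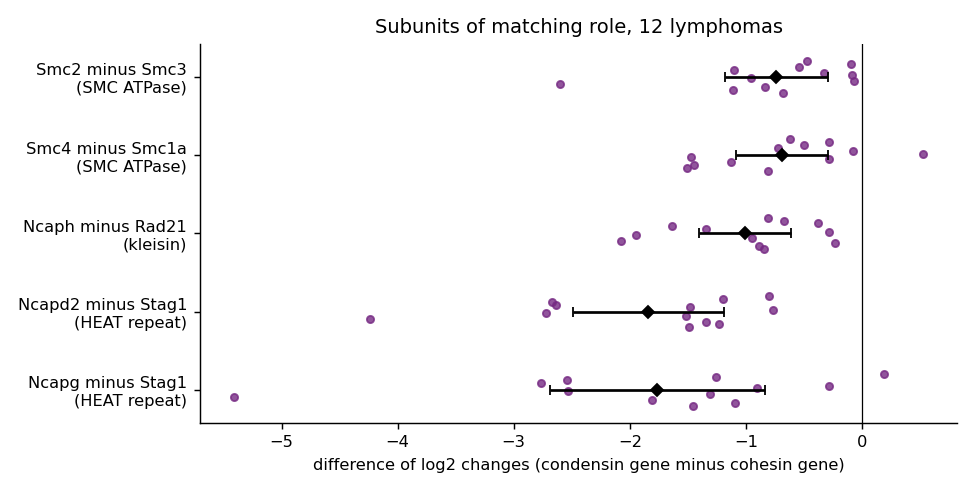
Difference of log2 changes, condensin gene minus cohesin gene (horizontal axis), for 5 gene pairs of matching role in 12 lymphomas (points), with the mean and its 95% interval (diamond and bar). All 5 intervals lie below 0, and only Smc4 minus Smc1a in lymphoma 3802 (0.53) and Ncapg minus Stag1 in lymphoma 403 (0.19) lie above it.

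The size of the condensin fall differed between lymphomas more than that of the cohesin subunits. Gene by gene, the SD of the change was 0.63 (Ncaph) to 1.13 (Ncapg) for condensin. It was 0.23 (Smc1a) to 0.53 (Stag1) for the cohesin subunits. Averaging genes whose changes are weakly correlated lowers the SD of their mean, which widens the gap between the means below. The mean change of the 5 condensin genes was -1.80 ± 0.75 (SD over 12 lymphomas), from -3.38 in lymphoma 2949 to -0.68 in lymphoma 3802. The mean change of Smc1a, Smc3, Rad21 and Stag1 was -0.66 ± 0.19, from -1.12 in lymphoma 2581 to -0.45 in lymphoma 3802. The condensin mean fell below that subunit mean in 12 of 12 lymphomas, by 0.22 to 2.89. In 8 of 12, every condensin gene changed further below 0 than every cohesin subunit gene. Esco2 was further below 0 than all 4 cohesin subunit genes in 11 of 12.

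Lymphomas 2949 and 3802 were also the ends of the range for Mki67, a marker of cycling cells. Mki67 averaged 8.42 ± 0.83 in ADR and 10.77 ± 0.40 in untreated (SD, n = 12 each), a change of -2.35 (limma adjusted p = 2.22e-05). Its change was -4.28 in lymphoma 2949 and -0.98 in lymphoma 3802. The part of a smaller share of cycling cells in the members' changes was not tested.

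Changes of partner subunits were correlated across the 12 lymphomas in 8 pairs of genes, with permutation p-values adjusted over the 8. Each pair of values comes from the same arrays, so array-wide errors are shared. The ATPases Smc2 and Smc4 changed together (Pearson's r = 0.817, adjusted permutation p = 0.00243, Spearman's rho = 0.902, adjusted p = 0.00144). Leaving out lymphomas 2949 and 5766, whose Smc2 changes lay farthest from the median, gave r = 0.952.

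Ncapg and Ncaph had r = 0.821 (adjusted permutation p = 0.00192) and rho = 0.699 (adjusted p = 0.0497). Ncapd2 and Ncaph had r = 0.855 (adjusted permutation p = 0.00192) and rho = 0.678 (adjusted p = 0.0497). Without the 2 farthest lymphomas, r was 0.648 for the first and 0.687 for the second (adjusted permutation p = 0.110 for both), so these 2 relations rest in part on lymphoma 2949 and on 5766 or 3802. Among the 7 lymphomas whose array files are named DOX, r was 0.838 for Smc2 with Smc4, 0.856 for Ncapg with Ncaph and 0.895 for Ncapd2 with Ncaph (adjusted exact permutation p = 0.0460 for each). The 5 lymphomas named sen were too few for a correlation.

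The cohesin pairs did not pass. Smc1a and Smc3 had r = 0.583 (adjusted permutation p = 0.0728) and rho = 0.580 (adjusted p = 0.103), and Smc3 and Rad21 had r = 0.581 (adjusted permutation p = 0.0683) and rho = 0.552 (adjusted p = 0.105). Within the 7 DOX lymphomas r was 0.279 for Smc1a with Smc3 and 0.297 for Smc3 with Rad21 (adjusted exact permutation p = 0.736 for both), and with the mean of all probe sets r was 0.475 and 0.0894. Rad21 and Stag1 had r = 0.01 (adjusted permutation p = 0.973). Between the complexes, the kleisins Ncaph and Rad21 had r = 0.282 (adjusted permutation p = 0.510), and Esco2 and its substrate Smc3 had r = 0.223 (adjusted permutation p = 0.573). With 12 points a weaker relation would not be detected.

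The genes whose changes were most like those of a member were listed by Pearson's r over the 12 lymphomas among all 18193 genes, as a description with no test. For Smc2 they were Ttk, a spindle checkpoint kinase (r = 0.975), Brca1, a DNA repair protein (0.974), and the condensin gene Ncapg (0.973). For Ncaph they were Ttf2 (0.941), Ccdc77 (0.929) and Fbxo5 (0.919), an inhibitor of the anaphase-promoting complex. For Esco2 they were Cdca5 (0.919), whose product sororin keeps cohesin on chromatin, the mitotic cyclin Ccnb2 (0.903) and Cip2a (0.903).

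For Smc3 they were Zfp664 (r = 0.913), Clasp1 (0.883) and the histone deacetylase Hdac2 (0.878). For Rad21 they were the splicing factor Sf3b2 (0.876), Ms4a10 (0.865) and AI987944 (0.857). Zfp664, Ms4a10 and AI987944 had mean changes of 0.15, 0.10 and 0.17, so a high r did not mean a fall of like size. The highest r values picked from 18193 genes over 12 lymphomas can also be large between unrelated genes. How large was not tested.

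Condensin II shares Smc2 and Smc4 with condensin I and has its own kleisin and HEAT-repeat proteins. All 3 of its own subunit genes were called lower, against 12.8% of all genes tested. The HEAT-repeat gene Ncapg2 averaged 7.52 ± 0.69 in ADR and 9.32 ± 0.40 in untreated (SD, n = 12 each), a change of -1.79 (limma adjusted p = 3.96e-05), and Ncapd3 averaged 7.05 ± 0.53 in ADR and 8.70 ± 0.43 in untreated, a change of -1.65 (limma adjusted p = 4.72e-05). All 12 ADR arrays of Ncapd3 were below all 12 untreated arrays, a pattern that 0.264% of all genes tested had. The kleisin Ncaph2 changed by -0.58 (limma adjusted p = 0.000531), beside -1.66 for Ncaph of condensin I. This Ncaph2 probe set also has the suffix _x_at, and its other probe sets changed by -0.81, -0.80 and -0.62. Within the sen lymphomas Ncaph2 was at -0.48 and was not called (limma adjusted p = 0.150). The difference between these kleisins was not tested.

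Of 4 other measured cohesin subunits, only Stag2, the second mitotic STAG protein, was called lower, against 12.8% of all genes tested. It averaged 9.24 ± 0.23 in ADR and 9.55 ± 0.13 in untreated (SD, n = 12 each), a change of -0.31 (limma adjusted p = 0.0105). That call did not hold within the sen lymphomas (-0.36, limma adjusted p = 0.206) or the DOX lymphomas (-0.28, limma adjusted p = 0.0817), nor with the fibroblast covariate described below. The meiotic subunits Stag3, Smc1b and Rec8 were near the floor in both groups, with group means of 3.08 to 4.13 in ADR and 3.09 to 4.01 in untreated, and were not called.

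The regulators of cohesin loading, release and acetylation divided, with 4 of 8 called lower and 0 called higher. The shares of all genes tested were 12.8% and 13.7%. Cdca5 fell by 1.88 on the log2 scale (limma adjusted p = 6.14e-05), and averaged 7.90 ± 1.02 in ADR and 9.78 ± 0.42 in untreated (SD, n = 12 each). Hdac8, which removes the acetyl group from SMC3, fell by 0.76, and the cohesin-associated regulators Pds5b and Pds5a fell by 0.73 and 0.64. With the fibroblast covariate described below, Cdca5 kept its call, while Pds5b was at -0.38 (limma adjusted p = 0.178), Pds5a at -0.30 (0.388) and Hdac8 at -0.053 (0.932). The loader genes Nipbl and Mau2 had changes of -0.08 and 0.09, the releasing factor Wapl of 0.05 and Esco1 of 0.10, with none called (limma adjusted p 0.279 to 0.633). Wapl's probe sets disagreed. The one reported had 8.89 in ADR and 8.84 in untreated, while another, at 8.16 in ADR and 8.53 in untreated, changed by -0.37 and was called (limma adjusted p = 0.00313).

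Of 6 genes for cohesin cleavage and protection, 4 were called lower and 0 higher, against 12.8% and 13.7% of all genes tested. Plk1, a kinase that strips cohesin from chromosome arms in prophase, fell by 2.10 (limma adjusted p = 8.08e-06), with 6.89 ± 0.81 in ADR and 8.99 ± 0.48 in untreated (SD, n = 12 each). Espl1, the separase that cuts RAD21, fell by 1.85, and the shugoshins Sgo2a and Sgo1, which protect cohesin at centromeres, fell by 1.74 and 1.68. Pttg1, the securin that holds separase inactive, was not called: it averaged 10.49 ± 0.34 in ADR and 10.33 ± 0.39 in untreated (SD, n = 12 each), a change of 0.16 (limma adjusted p = 0.404). Ppp2r1a, the phosphatase scaffold that works with shugoshin, had a change of 0.16 (limma adjusted p = 0.120).

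Of 6 genes of the related Smc5/6 repair complex, 4 were called lower and 0 higher, against 12.8% and 13.7% of all genes. Nsmce4a, its kleisin, fell by 1.02 (limma adjusted p = 8.08e-06), Nsmce1 by 0.74, the ATPase Smc6 by 0.49 and the SUMO ligase Nsmce2 by 0.38. This order depended on the probe set. The other probe set of Nsmce4a changed by -0.23, while the others of Smc6 ranged from -1.19 to -0.29. Smc5 and Nsmce3 had changes of -0.31 and -0.19 and were not called (limma adjusted p = 0.195 and 0.118). With the fibroblast covariate, Nsmce4a and Nsmce1 kept their calls and Smc5 was called at -1.05 (limma adjusted p = 0.00743), while Smc6 and Nsmce2 were not called.

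All 6 chromosome partners were called lower, against 12.8% of all genes tested. Top2a, the topoisomerase II of dividing cells and a target of the drug, averaged 9.26 ± 0.86 in ADR and 11.30 ± 0.30 in untreated (SD, n = 12 each), a change of -2.04 (limma adjusted p = 5.27e-05), with no overlap between the groups. The chromokinesin Kif4 fell by 1.66, also with no overlap, a pattern that 0.264% of all genes tested had. Ctcf, the DNA-binding protein at which cohesin loops stop, fell by 0.65 (limma adjusted p = 0.00378), Smchd1 by 0.63, Mcph1, an inhibitor of condensin II, by 0.62, and Top2b by 0.43. The order of these genes depended on the probe set. The other probe sets of Top2b changed by -0.76 and -1.20 and that of Ctcf by -0.86. Those of Smchd1 and Mcph1, near the floor in ADR, changed by -0.13 and -0.52. With the fibroblast covariate, Top2a and Kif4 kept their calls, while Ctcf was at 0.022 (limma adjusted p = 0.960), Top2b at 0.16 (0.578), Smchd1 at -0.36 (0.0986) and Mcph1 at -0.44 (0.0675). The median changes of these lists were -1.65 (condensin II), 0.02 (other cohesin subunits), -0.36 (loading, release and acetylation), -1.71 (cleavage and protection), -0.43 (Smc5/6) and -0.64 (chromosome partners), beside -0.01 for all genes. The 0.02 comes from 4 genes, of which 3 were near the floor in both groups.

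**Figure D4:**
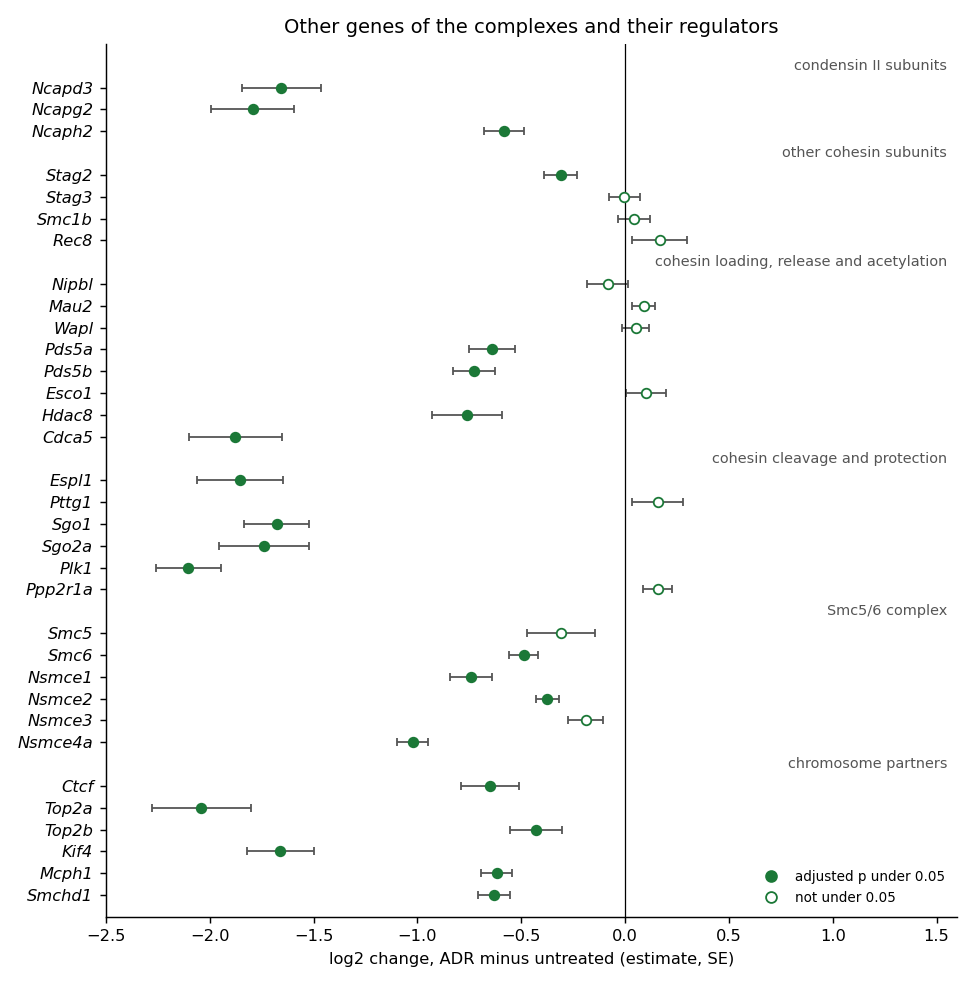
Log2 change, ADR minus untreated (horizontal axis), with its SE (bars) for 33 genes in 6 lists around the complexes; filled points had a limma adjusted p under 0.05. No filled point lies right of 0, and the lists of cohesin loading and of cleavage hold both genes near 0 and genes near -2.

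Markers of other cell types moved with treatment beside all these results. Of 21 measured fibroblast markers, 17 rose and 0 fell. Their mean level per array was 4.68 to 9.37 in ADR and 4.35 to 5.33 in untreated, and 1 of the 21 was near the floor in ADR and 11 in untreated. Of 16 macrophage markers, 12 rose and 0 fell, with a mean level per array of 6.42 to 9.74 in ADR and 5.09 to 8.66 in untreated. Of the 9 B cell markers 3 were called lower, namely Cd22 (-1.33), Cd79a (-0.80) and Ebf1 (-0.56). Of the other lists, 3 of 9 neutrophil markers rose (S100a8, Lcn2 and Mmp8), 1 of 8 T cell markers did (Thy1), and 0 of 3 erythroid markers were called. The T cell share is close to the 13.7% of all genes called higher.

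Changes of marker means and members are given for the lymphomas with the lowest and highest fibroblast and macrophage changes. These lymphomas were chosen after their values were seen. In lymphoma 1467 the fibroblast marker mean changed by -0.03 and the macrophage marker mean by 2.11, and there the condensin mean changed by -1.57 and the cohesin subunit mean by -0.60. In lymphoma 2949 the fibroblast and macrophage marker means changed by 0.59 and 0.51. There the condensin mean changed by -3.38 and the cohesin subunit mean by -0.49. In lymphoma 403 the fibroblast marker mean changed by 4.43 and the macrophage marker mean by 0.54. The condensin mean changed there by -1.35 and the cohesin subunit mean by -0.69. In lymphoma 2581 the fibroblast marker mean changed by 2.58 and the macrophage marker mean by 3.22. The condensin mean changed there by -2.19 and the cohesin subunit mean by -1.12.

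With the fibroblast marker mean of each array as a covariate, 9 of the 10 genes were still called lower, against 3.25% of all genes tested in that fit. Condensin changes were then -1.56 to -2.64, that of Esco2 was -2.42 and those of Smc1a, Smc3 and Rad21 were -0.74, -0.88 and -0.77, while Stag1 was at 0.13 (limma adjusted p = 0.811). With fibroblast and macrophage marker means together, limma called 0 of 18193 genes at the adjusted threshold and 2146 had an unadjusted p under 0.05, so 0 members were called, against 0% of all genes. The members' values were then -2.83 to -1.10 for condensin, -2.95 for Esco2, -0.65, -0.49 and -0.31 for Smc1a, Smc3 and Rad21, and 0.37 for Stag1, with SEs 2.26 to 3 times those of the paired fit. Among the related genes, the fibroblast covariate left all 3 condensin II genes and the same 4 cleavage and protection genes called lower, and ended the call of Stag2 (-0.17, limma adjusted p = 0.597). Within the sen lymphomas 11 of the 22 related genes called in the paired fit were not called, and within the DOX lymphomas 2 were not (Stag2 and Hdac8). Apart from these values, the part of other cells in the members' changes was not tested.

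**Figure D5:**
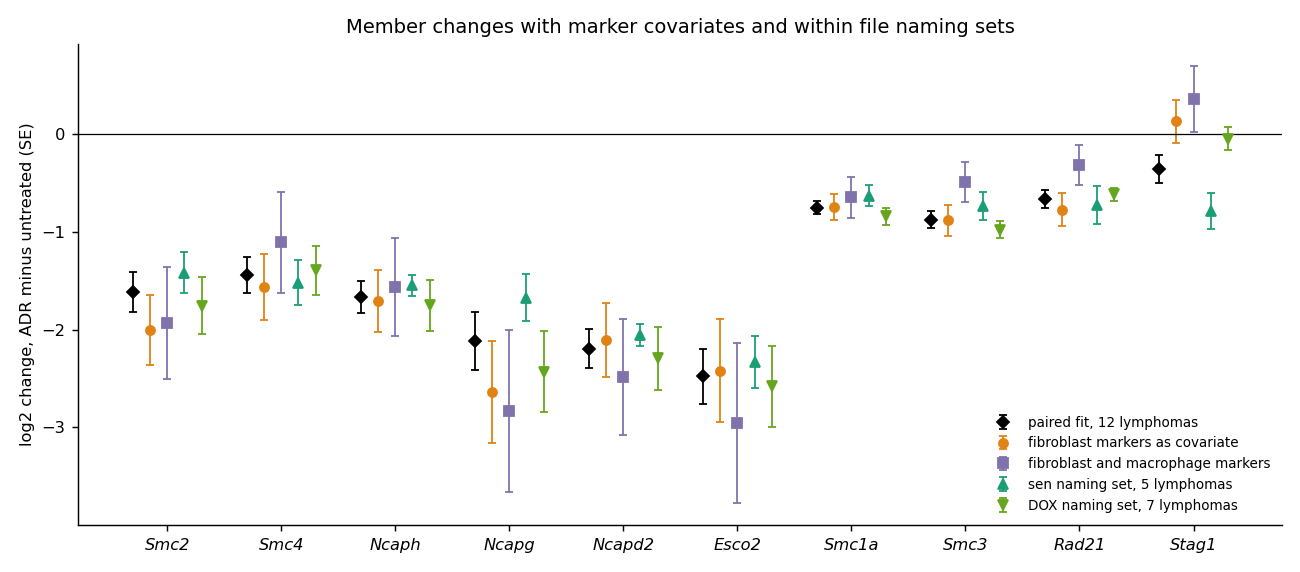
Log2 change, ADR minus untreated (vertical axis), with its SE (bars) for the 10 genes in the paired fit, with marker means as covariates, and within the lymphomas of each file naming set (5 sen, 7 DOX). The condensin genes, Esco2, Smc1a, Smc3 and Rad21 lie below 0 in all 5 fits, and Stag1 lies above 0 in both covariate fits.

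The array files of the treated samples carry either sen (5 lymphomas) or DOX (7 lymphomas) in their names, which was taken as a possible batch. Within the sen lymphomas, 8 of the 10 genes were called lower, against 2.6% of all genes, and Rad21 was at -0.72 (limma adjusted p = 0.0986). Within the DOX lymphomas, 9 were called lower, against 8.8% of all genes. No member's change differed between the naming sets at an adjusted p under 0.05, nor did any of the 18193 genes by limma, of which 1237 had an unadjusted p under 0.05. Stag1 had the smallest unadjusted p of the 10: its change was -0.78 in sen lymphomas and -0.04 in DOX lymphomas (unadjusted p = 0.00500 by limma, adjusted p = 0.679).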

How the data were processed

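Total RNA of 24 samples was hybridised to Affymetrix arrays, per the labels' protocols. The deposited table holds 1 log2 value per probe set and array, made by the authors with RMA and Partek, per the submitters' processing notes. The labels and files used here give neither version nor settings, and the log2 scale was read from the values. RMA compresses weak signals, so falls into the floor are understated. The number of arrays limits the precision.

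Of 45101 probe sets, 34945 carried 1 gene symbol in the platform annotation, 932 carried several and were not used, and 64 were controls. Each of 18193 genes was represented by its probe set with the highest mean. Groups and lymphoma numbers came from the sample titles. Deviations from the group means correlated by 0.257 to 0.589 within pairs, above 0.1 in 12 of 12, and 10 of 12 correlated best with their own partner. Arrays correlated by 0.908 to 0.992, array medians were 4.38 to 4.47, and 0 arrays were identical.

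ADR was compared with untreated by limma 3.58.1 (R 4.3.3), blocked on lymphoma number, with Benjamini-Hochberg adjustment over all genes. Role differences used exact two-sided sign-flip permutation tests, adjusted over 5. Correlations used two-sided permutation tests with 100000 resamples (all orderings for 7 lymphomas), adjusted over 8 (Python 3.11.15, scipy 1.17.1). The fit was tested on simulated data. Promoter windows came from RefSeq's table.

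The 10 genes, the lists and the pairs for role differences were chosen with earlier results of these data known. By rule, the text names all members, the largest called change of each list, 11 related genes (Ncapd3, Ncapg2, Ncaph2, Stag2, Nipbl, Wapl, Cdca5, Espl1, Top2a, Ctcf and Mki67) and the 3 most alike genes of 5 members. Other genes were chosen after their values were seen.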

Additional observations from a re-analysis of the deposited data

How the results depend on the processing

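The paired fit called 2329 of 18193 genes lower and 2500 higher. Without the replicate block limma called 1580 lower and 1630 higher, with the fibroblast covariate 591 and 398, with both marker covariates 0 and 0, within sen lymphomas 473 and 338, and within DOX lymphomas 1601 and 1649. The members called lower numbered 9 in the fit with the block and 9 without it, and 0 with both covariates. Without 1 lymphoma at a time they numbered 9 to 10, beside 1928 to 2541 of all 18193 genes called lower. The differences by role within the 5 sen lymphomas were -0.68 (Smc2 minus Smc3), -0.89 (Smc4 minus Smc1a), -0.82 (Ncaph minus Rad21), -1.27 (Ncapd2 minus Stag1) and -0.89 (Ncapg minus Stag1), where 0.0625 is the smallest exact permutation p that 5 lymphomas allow. None was called. The adjusted exact permutation p was 0.125 for Ncapg minus Stag1, with lymphoma 403 at 0.19, and 0.0781 for the others. Smc4 minus Smc1a was -0.42 with the probe sets of largest variance (adjusted exact permutation p = 0.0586) and -0.55 within DOX lymphomas (adjusted 0.0781). Without the 2 farthest lymphomas r was 0.648 for Ncapg with Ncaph and 0.687 for Ncapd2 with Ncaph, and Rad21 with Stag1 turned to -0.39, and to -0.21 within DOX lymphomas.

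Changes of the opposite sign from the paired fit appeared for genes near 0 or under covariates. With the fibroblast covariate they were 0.13 (Stag1), 0.031 (Stag3), -0.045 (Smc1b), 0.21 (Nipbl), -0.000275 (Wapl), -0.30 (Pttg1), -0.059 (Ppp2r1a), 0.022 (Ctcf) and 0.16 (Top2b). With both covariates they were 0.37 (Stag1), 0.27 (Stag3), -0.21 (Smc1b), -0.66 (Rec8), 0.35 (Nipbl), -0.18 (Mau2), -0.16 (Wapl), 0.025 (Pds5b), -0.81 (Pttg1), 0.35 (Nsmce3), 0.44 (Ctcf) and 0.39 (Top2b). Within DOX lymphomas they were 0.078 (Stag3), -0.0095 (Smc1b) and -0.010 (Pttg1), and within sen lymphomas -0.024 (Wapl). With other probe sets Wapl was at -0.37 (largest variance, called) and -0.077 (mean of probe sets), and Esco1 at -0.28 and -0.089. Without 1 lymphoma at a time Stag3 ranged from -0.057 to 0.026. The causes were not tested.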
